A study of Mus musculus with 8 samples.

Results

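Most members of the SLC25 family are carriers of the mitochondrial inner membrane. These proteins exchange nucleotides, phosphate, organic acids, amino acids and cofactors between the cytosol and the mitochondrial matrix. The family was taken as every row of the count table whose symbol is Slc25a followed by a number, which gave 47 of 56691 rows. RNA had been sequenced in bulk from 3-dimensional organoid cultures of mouse hindstomach epithelium, the lining of the glandular stomach, in 8 libraries. The YAP5SA group held 4 cultures of genotype Shh-Cre;YAP5SA and the Ctrl group held 4 cultures of genotype Shh-Cre, so both groups carried the Cre driven by Shh, a gene active in the gut epithelium of the embryo. YAP5SA is a form of YAP, the transcriptional coactivator at the end of the Hippo pathway, in which inhibitory phosphorylation sites are mutated. All cultures were started from stomachs at embryonic day 18.5 and were kept for 5 days in growth medium and then for 7 days in differentiation medium. Nothing in the labels says that the replicates came from separate animals, so the p-values measure the spread between these samples, which may be technical.

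Carriers of this family share a fold and differ in what they move, so the set of carriers a cell expresses sets which metabolites can cross the inner membrane. The ADP/ATP carriers and the phosphate carrier feed ATP synthase, the citrate, dicarboxylate and aspartate/glutamate carriers link the citric acid cycle with lipid synthesis and redox shuttles in the cytosol, and other members bring in coenzyme A, NAD, folate, iron and glutathione. In the stomach, the acid-secreting parietal cells are known for their very high content of mitochondria.

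Total counts ranged between 17387372 and 21039926 in the YAP5SA libraries and between 18225648 and 25841256 in the Ctrl libraries. Levels are given as CPM, the count scaled by the library's total and its TMM factor, with SD over n = 4 libraries in each group. The row of the targeted gene, Yap1, held 138 to 142 CPM in YAP5SA and 108 to 133 CPM in Ctrl, with a log2 fold change of 0.25 and an adjusted p of 0.0111 in edgeR; whether reads of the transgene count in this row is not given in the sources used here. Xist, the transcript of the inactive X chromosome, held 0 to 8 counts in YAP5SA libraries and 8436 to 12237 in Ctrl libraries, and 4 Y-linked genes held 880 to 3854 counts each in YAP5SA and 0 in Ctrl, so the genotype and the sex of the cultures cannot be told apart. Epithelial keratins and Epcam were present in every library, with Epcam at 592 ± 24 CPM in YAP5SA and 296 ± 26.4 CPM in Ctrl. Of the 9 epithelial and gastric surface markers, 1 was higher and 7 were lower in YAP5SA at an adjusted p under 0.05 in edgeR. Their sum was 12039 to 14764 CPM in YAP5SA and 39402 to 55562 CPM in Ctrl. Markers of other cells were near 0 except those of myeloid cells: the 7 immune markers summed to 67.0 to 74.0 CPM in YAP5SA and 8.69 to 17.9 CPM in Ctrl, nearly all from Cd68 and Csf1r, while Adgre1 had 0 counts and Ptprc had 3 counts over the YAP5SA libraries and 15 over the Ctrl libraries. The part of these differences in the results on carriers was not tested.

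Of the 47 carriers, 39 had enough counts to be tested, and 29 of these changed at an adjusted p under 0.05 in edgeR's quasi-likelihood test. Higher levels in YAP5SA were found for 11 carriers and lower levels for 18. A change was common among all genes in this comparison: 64.5% of 13812 genes passed the same threshold, 33.1% higher and 31.3% lower, against 74.4% of the tested carriers, 28.2% higher and 46.2% lower. With libraries scaled by their totals alone, 12 carriers were higher and 15 lower, and of all genes 5742 were higher and 3201 lower, against 4577 and 4330 with TMM scaling. In bulk RNA, fewer cells of a type and less RNA per cell cannot be told apart, and this holds for every difference given here.

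Differences of at least 2-fold were found in 12 carriers, 5 higher and 7 lower, which is 30.8% of those tested, against 25.5% of all genes, 14.0% higher and 11.5% lower. The higher carriers were Slc25a48, Slc25a23, Slc25a30, Slc25a53 and Slc25a27. The lower carriers were Slc25a42, Slc25a10, Slc25a33, Slc25a45, Slc25a5, Slc25a35 and Slc25a38. In 27 carriers, 69.2% of those tested, no YAP5SA library overlapped a Ctrl library in CPM, against 58.7% of all genes. The median log2 fold change of the tested carriers was -0.18, beside 0.02 over all genes, and the median size of a change without its sign was 0.65, beside 0.52. Without YAP5SA replicate 1 the median of the carriers was -0.09, without Ctrl replicate 2 it was -0.11, and with scaling by library totals it was -0.01, while the median of all genes under that scaling was 0.19.

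**Figure D1:**
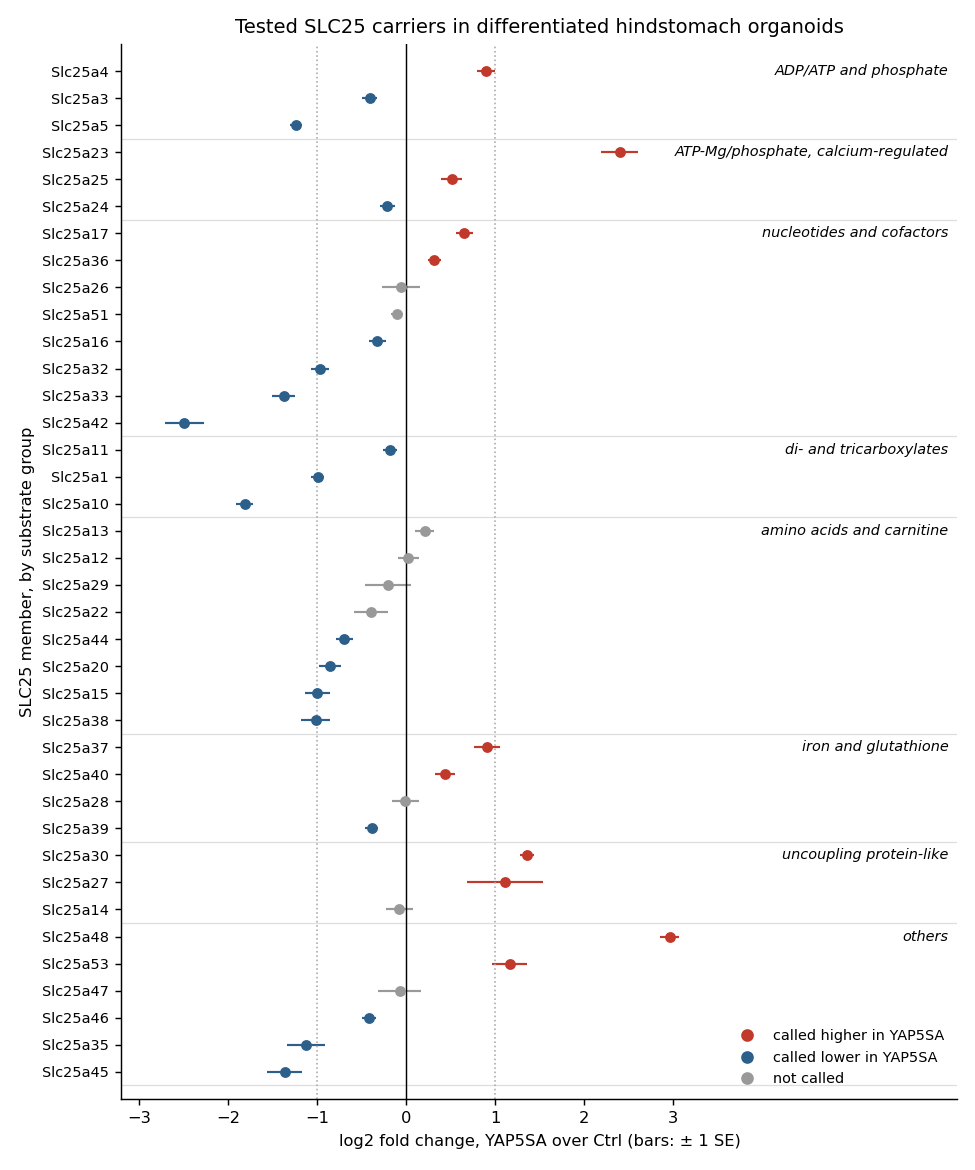
Log2 fold change, YAP5SA over Ctrl, of 38 of the 39 tested carriers in rows grouped by substrate; points are edgeR estimates, bars are 1 SE, dotted lines mark 2-fold, and red, blue and grey mark carriers called higher, called lower and not called. The 3 di- and tricarboxylate carriers all lie left of 0, whereas the ADP/ATP group, the ATP-Mg/phosphate group and the cofactor group hold carriers on both sides.

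The promoter sequences of the 3 carriers with the largest fold changes and of the 2 main ADP/ATP carriers, which moved in opposite directions, are shown so that the differences below can be read beside the sequence at the start of each gene. Each runs over 300 bases, 250 before to 50 after the start of a RefSeq transcript on GRCm38.p6, on the strand of the gene. The end of each window was found in a GENCODE M21 transcript of the gene except for Slc25a5, so its window may lie short of the start in that annotation. Capitals mark GGAATG or its complement CATTCC, the core of the motif bound by TEAD factors, the DNA-binding partners of YAP.
Slc25a48, chr13:56438105-56438404, plus strand: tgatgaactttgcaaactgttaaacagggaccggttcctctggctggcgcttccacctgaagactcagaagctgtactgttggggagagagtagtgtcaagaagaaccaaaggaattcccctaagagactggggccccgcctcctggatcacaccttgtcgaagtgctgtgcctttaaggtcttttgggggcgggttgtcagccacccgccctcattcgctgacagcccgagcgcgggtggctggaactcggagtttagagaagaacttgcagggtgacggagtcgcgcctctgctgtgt
Slc25a23, chr17:57059793-57060092, minus strand: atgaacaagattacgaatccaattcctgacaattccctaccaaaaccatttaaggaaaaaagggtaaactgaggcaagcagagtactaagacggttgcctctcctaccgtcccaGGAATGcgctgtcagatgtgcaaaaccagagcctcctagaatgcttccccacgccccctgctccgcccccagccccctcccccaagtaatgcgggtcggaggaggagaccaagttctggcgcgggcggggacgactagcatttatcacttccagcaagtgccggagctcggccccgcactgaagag
Slc25a42, chr8:70212232-70212531, minus strand: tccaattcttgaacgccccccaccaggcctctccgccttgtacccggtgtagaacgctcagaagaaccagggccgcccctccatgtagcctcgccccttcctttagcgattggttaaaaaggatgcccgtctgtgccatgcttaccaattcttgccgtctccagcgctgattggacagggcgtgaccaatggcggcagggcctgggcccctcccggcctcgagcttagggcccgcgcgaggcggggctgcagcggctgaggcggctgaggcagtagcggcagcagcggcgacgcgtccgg
Slc25a4, chr8:46211013-46211312, minus strand: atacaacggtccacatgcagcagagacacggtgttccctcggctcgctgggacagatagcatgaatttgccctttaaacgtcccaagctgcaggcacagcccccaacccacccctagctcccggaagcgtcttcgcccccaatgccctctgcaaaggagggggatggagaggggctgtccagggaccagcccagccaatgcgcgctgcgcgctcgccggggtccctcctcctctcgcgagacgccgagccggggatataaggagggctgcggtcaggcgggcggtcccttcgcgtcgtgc
Slc25a5, chrX:36795347-36795646, plus strand: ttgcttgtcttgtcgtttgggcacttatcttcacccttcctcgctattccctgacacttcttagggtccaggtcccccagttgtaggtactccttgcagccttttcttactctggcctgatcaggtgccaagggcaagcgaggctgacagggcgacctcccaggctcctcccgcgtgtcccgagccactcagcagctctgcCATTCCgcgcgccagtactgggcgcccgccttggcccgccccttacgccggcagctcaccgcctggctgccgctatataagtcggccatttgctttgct
The windows of Slc25a23 and Slc25a5 hold 1 match each, and those of Slc25a48, Slc25a42 and Slc25a4 hold none. RefSeq windows were found for 36 of the 47 carriers, 46 windows in all, and 9 of these, 19.6%, held the hexamer on either strand, against 14.7% of 32851 windows of all genes. The 7 carriers with a match divided into Slc25a23, Slc25a25 and Slc25a36, which were higher in YAP5SA, and Slc25a5, Slc25a16, Slc25a20 and Slc25a24, which were lower. CACGTG, the E-box, was present in 17.4% of the carriers' windows and 7.15% of all windows. The motif of NRF1, searched as a pair of GCGC blocks with any pair of bases between them, was present in 6.52% of the carriers' windows and 6.23% of all windows. Counted by gene, since some genes have several windows, the TEAD hexamer was present in 19.4% of the carriers and 16.6% of all genes, the E-box in 19.4% and 8.09%, and the NRF1 motif in 8.33% and 7.00%. The median share of G and C was 59.3% in the carriers' windows and 52.7% in all windows. A match is a description of the sequence and does not show that a factor binds there.

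The 2 main ADP/ATP carriers, which export ATP made in the matrix in exchange for cytosolic ADP, changed in opposite directions. Slc25a4, the isoform best known from heart and skeletal muscle, was measured at 272, 270, 253 and 287 CPM in YAP5SA replicates 1 to 4 and at 182, 125, 136 and 138 CPM in Ctrl replicates 1 to 4. The groups did not overlap, and Ctrl replicate 1 was the highest of its group. Slc25a4 was higher in YAP5SA, with a log2 fold change of 0.90 ± 0.10 (SE) and an adjusted p of 4.00e-06 in edgeR. Slc25a5, the isoform typical of dividing cells, was measured at 202, 188, 195 and 220 CPM in YAP5SA and at 474, 470, 487 and 470 CPM in Ctrl. Every YAP5SA library lay far below every Ctrl library, and the Ctrl libraries were close to each other. Slc25a5 was lower in YAP5SA, with a log2 fold change of -1.24 ± 0.07 and an adjusted p of 2.57e-09 in edgeR. Slc25a5 is X-linked, and of the 443 X-linked genes tested 286 were called, with a median log2 fold change of 0.23. Slc25a31, the isoform of male germ cells, had 2 counts over the YAP5SA libraries and 1 over the Ctrl libraries and was not tested.

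Per kilobase of exon, Slc25a4 made up 48.6%, 50.1%, 47.5% and 47.7% of the summed ADP/ATP carriers in YAP5SA replicates 1 to 4, against 21.2%, 15.7%, 16.3% and 17.1% in Ctrl replicates 1 to 4. The share was thus 48.5% ± 1.2 in YAP5SA and 17.6% ± 2.5 in Ctrl, and the groups did not overlap. The summed level of the group was 237 ± 13.2 CPM per kb in YAP5SA and 350.5 ± 11.6 CPM per kb in Ctrl. With the median length of protein-coding transcripts in place of the exon length, an alternative chosen after seeing the data, the share of Slc25a4 was 46.4% ± 1.2 in YAP5SA and 16.4% ± 2.4 in Ctrl. The 2 carriers resemble each other in sequence and Slc25a5 has a pseudogene with a row of its own; how reads that fit more than 1 copy were counted is not given in the sources used here. Markers of muscle, where Slc25a4 is the main isoform, were close to 0: the 8 of them summed to 1.04 to 1.33 CPM in YAP5SA and 2.57 to 2.99 CPM in Ctrl, Ckm had 5 counts over the YAP5SA libraries and 7 over the Ctrl libraries, and Actc1 had 0.

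**Figure D2:**
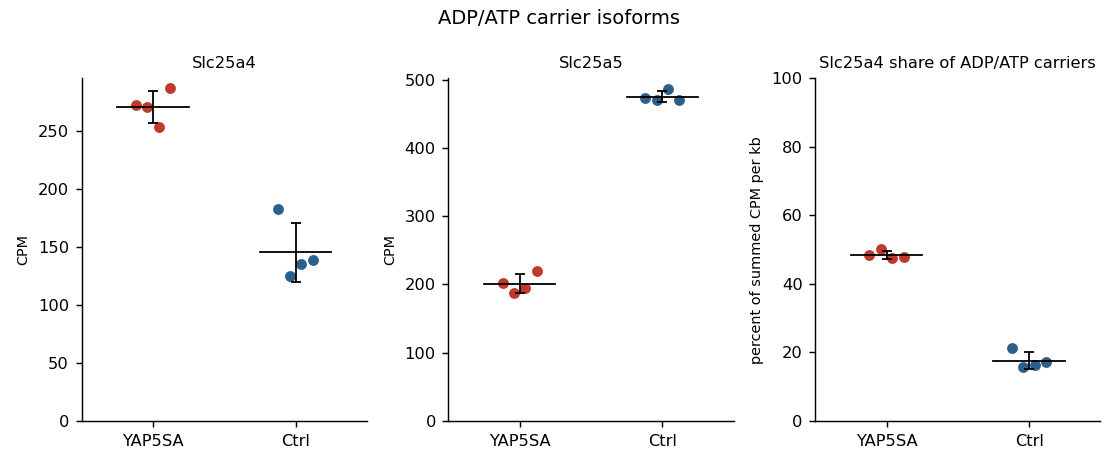
Levels of Slc25a4 and Slc25a5 in CPM and the share of Slc25a4 in the summed CPM per kb of the ADP/ATP carriers, by library; points are libraries, lines are means and bars are SD (n = 4). Slc25a4 lies at 253 to 287 CPM in YAP5SA, above all Ctrl libraries, Slc25a5 lies at 188 to 220 CPM, below all Ctrl libraries, and the share of Slc25a4 is 47.5% to 50.1% in YAP5SA and 15.7% to 21.2% in Ctrl.

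Slc25a3, the carrier that supplies the matrix with phosphate for ATP synthesis, was lower in YAP5SA by a smaller amount, at 251 ± 22.9 CPM in YAP5SA and 333 ± 26.7 CPM in Ctrl, with a log2 fold change of -0.41 and an adjusted p of 0.000724 in edgeR. Its YAP5SA and Ctrl libraries did not overlap. ATP synthase itself, the enzyme these carriers serve, was listed with 15 nuclear subunit genes, of which 2 were higher and 8 lower, with a median log2 fold change of -0.21. The share of subunits called was 66.7%, close to the 64.5% of all genes. Scaled by library totals, 3 were higher and 4 lower, and the count of higher subunits was 1 without any one of YAP5SA replicates 1, 2 and 4 and the 4 Ctrl replicates. The 3 subunits with the smallest p were Atp5e at -0.75, Atp5g1 at -0.60 and Atp5g3 at -0.55. Transcripts of the mitochondrial genome, 37 rows, made up 5.37% ± 0.33 of all counts in YAP5SA and 4.62% ± 0.26 in Ctrl. The groups did not overlap in this share, which is taken without TMM scaling. The TMM factors were 1.04 to 1.08 in YAP5SA and 0.92 to 0.97 in Ctrl, so scaling would bring the groups closer. Divided by these factors, the shares of the YAP5SA and Ctrl libraries overlap.

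The ATP-Mg/phosphate carriers adjust the pool of adenine nucleotides in the matrix, and Slc25a23, Slc25a24 and Slc25a25 are regulated by calcium through EF-hand domains. Slc25a23 was the second highest carrier by fold change, at 15, 13.3, 13.5 and 9.03 CPM in YAP5SA and 2.88, 1.84, 2.79 and 2.01 CPM in Ctrl. YAP5SA replicate 4 was the lowest of its group and still lay above every Ctrl library. Slc25a23 was higher by 2.40 ± 0.21 on the log2 scale, with an adjusted p of 1.91e-07 in edgeR. Slc25a25 was measured at 15.2, 13.9, 14.6 and 16.4 CPM in YAP5SA and 10.1, 10.3, 9.42 and 12.4 CPM in Ctrl. It was higher in YAP5SA without overlap, with a log2 fold change of 0.51 ± 0.12 and an adjusted p of 0.00210 in edgeR.

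The most abundant member of that group, Slc25a24, was measured at 189, 179, 189 and 238 CPM in YAP5SA and 231, 234, 230 and 224 CPM in Ctrl. The groups overlapped, since YAP5SA replicate 4 lay above all Ctrl libraries and the other YAP5SA replicates below them. Its log2 fold change was -0.21 ± 0.09 with an adjusted p of 0.0491 in edgeR, close to the threshold, and it was -0.31 without YAP5SA replicate 4. The call was lost without YAP5SA replicate 1, 2 or 3 or Ctrl replicate 2 or 3, at log2 fold changes between -0.16 and -0.23, and with scaling by library totals, at -0.03. Per kilobase of exon, Slc25a24 made up 93.0% ± 1.3 of the group in YAP5SA and 97.4% ± 0.2 in Ctrl, and Slc25a23 3.95% ± 1.09 in YAP5SA and 0.653% ± 0.145 in Ctrl. With transcript length in place of exon length the share of Slc25a24 was 71.9% ± 5.0 in YAP5SA and 90.3% ± 0.8 in Ctrl. The groups did not overlap in the share by exon length. Slc25a41 had 0 counts in all 8 libraries.

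Among the carriers of nucleotides and cofactors, 9 of which were tested, 2 rose, 4 fell and 3 were not called. The share called, 66.7%, was close to the 64.5% of all genes. Slc25a42, which brings coenzyme A into the matrix, showed the largest decrease of the family. It was measured at 1.32, 1.14, 1.44 and 0.821 CPM in YAP5SA and at 6.15, 6.46, 6.13 and 7.93 CPM in Ctrl, so that every YAP5SA library lay well below every Ctrl library. The log2 fold change was -2.50 ± 0.22 with an adjusted p of 2.58e-07 in edgeR, and it rests on 96 counts over the YAP5SA libraries and 507 over the Ctrl libraries. Slc25a16, also linked to coenzyme A, fell by 0.32 on the log2 scale, a call that was lost when libraries were scaled by their totals, at -0.15. Slc25a32, the carrier of folate and FAD, was lower at 17 ± 1.4 CPM in YAP5SA and 33.2 ± 2.7 CPM in Ctrl, a log2 fold change of -0.97. Slc25a17, a carrier of cofactors in the peroxisomal membrane, was higher by 0.65 on the log2 scale. Slc25a26 for S-adenosylmethionine had a log2 fold change of -0.05 and Slc25a51 for NAD one of -0.10, and neither was called.

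Both carriers of pyrimidine nucleotides, which supply the synthesis of mitochondrial DNA and RNA, changed, in opposite directions. Slc25a33 was measured at 5.18, 4.68, 5.92 and 5.47 CPM in YAP5SA and 14.0, 13.8, 12.9 and 14.5 CPM in Ctrl. The groups were far apart, with a log2 fold change of -1.38 ± 0.13 and an adjusted p of 4.83e-07 in edgeR. Slc25a36 was measured at 117, 121, 125 and 111 CPM in YAP5SA and 92.5, 103, 96.9 and 89.0 CPM in Ctrl. It was higher in all YAP5SA libraries, with a log2 fold change of 0.32 ± 0.07 and an adjusted p of 0.00161 in edgeR. Per kilobase of exon, Slc25a36 made up 81.5% ± 1.6 of the pair in YAP5SA and 57.5% ± 2.4 in Ctrl, and 91.2% ± 0.8 in YAP5SA and 76.3% ± 1.8 in Ctrl by transcript length. By exon length no YAP5SA library overlapped a Ctrl library in this share. An antisense gene, Gm13068, covers 14.9% of the exons of Slc25a33 and had 7 counts over the YAP5SA libraries and 6 over the Ctrl libraries.

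The enzymes that make these cofactors were divided. Of 13 genes for the synthesis of coenzyme A, NAD, flavins, thiamine pyrophosphate and S-adenosylmethionine, 4 were higher and 7 lower, or 5 and 5 with scaling by library totals, with a median log2 fold change of -0.31. With TMM scaling 84.6% were called, against 64.5% of all genes. The smallest p were those of Mat2a, which makes S-adenosylmethionine, at -1.64, Rfk, the riboflavin kinase, at -1.58 and Ppcs, of coenzyme A synthesis, at -0.94. Of the 6 genes of mitochondrial one-carbon metabolism, the pathway that uses imported folate, 4 were higher and 1 lower, with a median of 0.48. That is 83.3% called, against the same share of all genes. Aldh1l2 was higher at 2.40, Mthfd1l at 1.06 and Mthfd2 at 0.54. The count of lower genes in this pathway was 2 without Ctrl replicate 1 and 0 with scaling by library totals.

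All 3 tested carriers of di- and tricarboxylates were lower in YAP5SA. Slc25a10, the dicarboxylate carrier, which exchanges malate or succinate for phosphate, was measured at 19.5, 19.8, 22.1 and 22.9 CPM in YAP5SA and 65.6, 85.4, 74.2 and 71.8 CPM in Ctrl. No YAP5SA library reached the level of any Ctrl library, and the log2 fold change was -1.82 ± 0.10 with an adjusted p of 1.64e-09 in edgeR. Slc25a1, which exports citrate for the synthesis of fatty acids and sterols, was measured at 109, 97.8, 106 and 98.9 CPM in YAP5SA and 188, 220, 213 and 196 CPM in Ctrl. The groups were again apart, with a log2 fold change of -0.99 ± 0.07 and an adjusted p of 5.38e-08 in edgeR. Slc25a11, the oxoglutarate/malate carrier of the malate-aspartate shuttle, had a log2 fold change of -0.18 ± 0.08 and an adjusted p of 0.0497 in edgeR. That call was lost without any single library other than Ctrl replicate 4, at log2 fold changes between -0.16 and -0.20, and it was -0.01 with scaling by library totals. Part of the exons of Slc25a11, 8.92%, is shared with Rnf167 on the opposite strand. Slc25a21, the oxoadipate carrier, had 6 counts over the YAP5SA libraries and 14 over the Ctrl libraries.

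Among the enzymes on either side of these carriers, more were lower than higher. Of 22 genes of the malate-aspartate shuttle, citrate metabolism and the citric acid cycle, 6 were higher and 14 lower, with a median log2 fold change of -0.24. The called genes made up 90.9% of this list, against 64.5% of all genes, 33.1% higher and 31.3% lower. With scaling by library totals, 7 of the list were higher and 10 lower, and with upper quartile scaling 6 and 10. The 3 genes with the smallest p were Me2, the mitochondrial malic enzyme, at -2.05, Me1, its cytosolic counterpart, at -1.66 and Got1, the cytosolic aspartate aminotransferase, at -1.06.

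Of the 8 tested carriers of amino acids and carnitine, edgeR called 4 lower and 0 higher, and DESeq2 likewise called 4 lower and 0 higher. Of the 4 not called, 0 had an unadjusted p under 0.05. The share called was below the 64.5% of all genes. Scaling by library totals gave 4 lower and 1 higher, and leaving out YAP5SA replicate 4 gave 6 lower and 1 higher. A block for the replicate number gave 5 lower and 0 higher, and every other setting gave 4 lower and 0 higher. Slc25a38, which imports glycine for haem synthesis, was measured at 4.50, 3.95, 5.38 and 5.43 CPM in YAP5SA and 9.99, 8.47, 8.97 and 11.6 CPM in Ctrl. The groups did not overlap, and the log2 fold change was -1.02 ± 0.16 with an adjusted p of 9.01e-05 in edgeR. Slc25a15, the ornithine carrier of the urea cycle, was measured at 9.26, 11.4, 9.33 and 11.4 CPM in YAP5SA and 23.9, 16.6, 19.3 and 23.0 CPM in Ctrl. It too was lower in all YAP5SA libraries, with a log2 fold change of -0.995 ± 0.14 and an adjusted p of 2.27e-05 in edgeR. Slc25a20, the carnitine/acylcarnitine carrier of fatty acid oxidation, had 17.4 ± 1.4 CPM in YAP5SA and 31.5 ± 5.0 CPM in Ctrl and a log2 fold change of -0.85. Slc25a44, a carrier of branched-chain amino acids, had 22.1 ± 2.3 CPM in YAP5SA and 35.7 ± 1.0 CPM in Ctrl and a log2 fold change of -0.69.

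The aspartate/glutamate carriers, which drive the malate-aspartate shuttle, were not called. Slc25a12 was measured at 28.7, 28.4, 28.0 and 25.1 CPM in YAP5SA and 26, 31.8, 28.8 and 21.6 CPM in Ctrl, fully overlapping, with a log2 fold change of 0.03 ± 0.12. Slc25a13 was measured at 46.0, 47.3, 50.4 and 35 CPM in YAP5SA and 37.8, 38.3, 41.4 and 36.8 CPM in Ctrl, where YAP5SA replicate 4 was below every Ctrl library. Its log2 fold change was 0.21 ± 0.11 with an adjusted p of 0.101 in edgeR, and it was called without YAP5SA replicate 4, at 0.30, and with scaling by library totals, at 0.39. Slc25a13 made up 75.6% ± 2.0 of the pair per kilobase in YAP5SA and 73.5% ± 2.8 in Ctrl, overlapping.

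The glutamate carrier Slc25a22 was measured at 4.36, 5.05, 6.02 and 6.98 CPM in YAP5SA and 6.54, 7.11, 6.42 and 9.38 CPM in Ctrl. YAP5SA replicate 4 reached into the range of the Ctrl libraries, and the log2 fold change of -0.39 ± 0.19 had an adjusted p of 0.0830 in edgeR. Without that replicate Slc25a22 was called at -0.52, as was Slc25a29, a carrier of basic amino acids, at -0.56 in place of -0.20 with all libraries. Slc25a18, the other glutamate carrier, had 2 counts over the YAP5SA libraries and 6 over the Ctrl libraries. Slc25a2, the second ornithine carrier, had 10, 8, 10 and 10 counts in YAP5SA and 2, 4, 6 and 11 counts in Ctrl and was not tested. Its share with Slc25a15 was 15.7% ± 2.7 per kilobase in YAP5SA and 5.60% ± 3.29 in Ctrl, on these few counts.

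Enzymes that use these amino acids and carnitine were listed separately. Of 8 tested genes of glutamate, proline and ornithine metabolism, 7 were higher and 1 lower, with a median log2 fold change of 1.22, and 7 were higher and 0 lower with scaling by library totals. With all libraries and TMM scaling 100% were called, against 64.5% of all genes, 33.1% higher and 31.3% lower. Ass1, the argininosuccinate synthase, was higher at 3.81 and Oat, the ornithine aminotransferase, at 1.35. Of 9 tested genes of the carnitine shuttle and fatty acid oxidation, 2 were higher and 5 lower, with a median of -0.65. That is 77.8% called, against 64.5% of all genes. Cpt1a, which forms the acylcarnitines that Slc25a20 carries, was lower at -2.11, its relative Cpt1c was higher at 2.29, and Hadha, of the trifunctional protein, was lower at -0.79. The count of higher genes was 1 without YAP5SA replicate 2 or Ctrl replicate 1, 2 or 4.

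**Figure D3:**
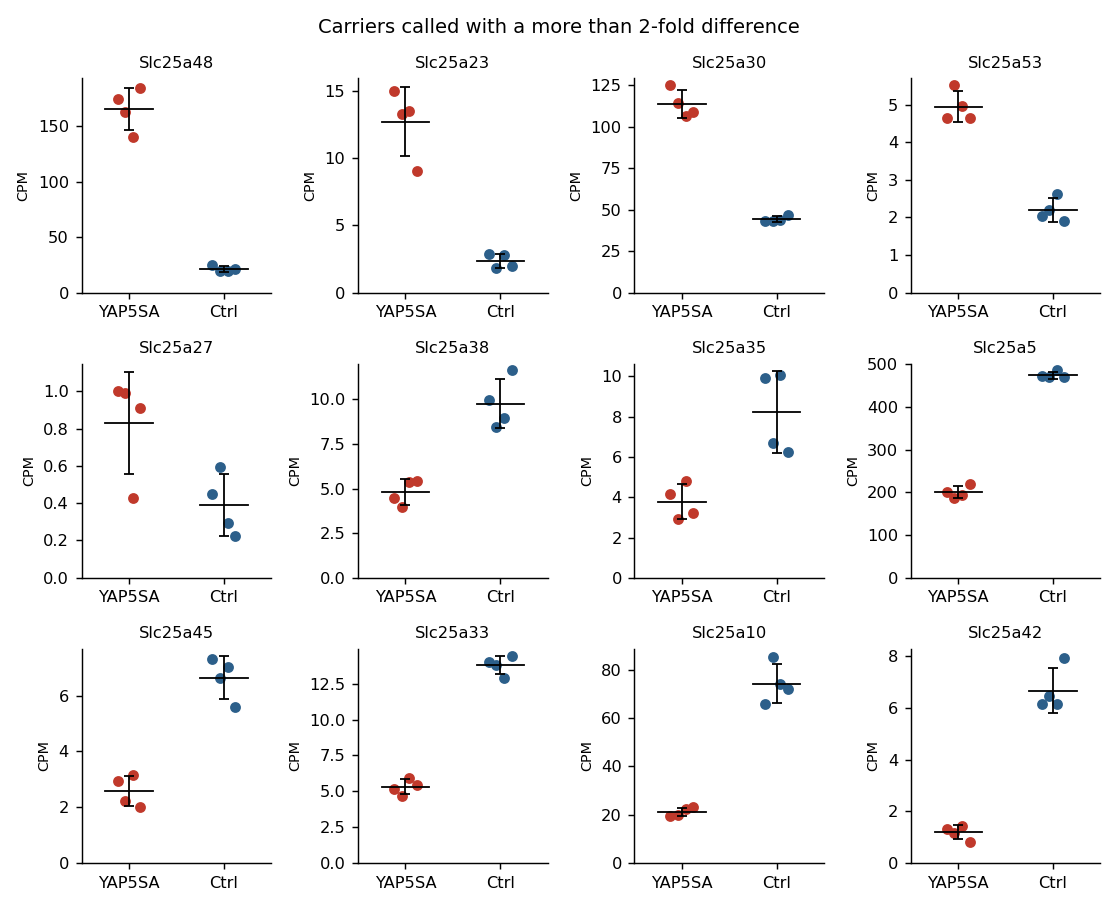
CPM by library of the 12 carriers called with a difference of at least 2-fold, ordered by log2 fold change, each panel with its own linear axis starting at 0; points are libraries, lines are means and bars are SD (n = 4). The groups overlap only for Slc25a27, where 1 YAP5SA library at 0.426 CPM lies within the Ctrl range.

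The iron carriers, mitoferrins, supply iron for haem and iron-sulfur clusters. Mitoferrin 1, Slc25a37, the isoform prominent in red blood cell precursors, was measured at 33.3, 31.3, 29.4 and 31.5 CPM in YAP5SA and 20.9, 16.9, 11.8 and 17.5 CPM in Ctrl. It was higher in all YAP5SA libraries, with a log2 fold change of 0.91 ± 0.14 and an adjusted p of 6.68e-05 in edgeR. Mitoferrin 2, Slc25a28, the isoform of most other cells, was measured at 7.40, 8.22, 8.42 and 8.16 CPM in YAP5SA and 8.63, 7.11, 6.80 and 9.94 CPM in Ctrl. Its groups overlapped and it was not called, at a log2 fold change of -0.01 ± 0.15. Per kilobase, Slc25a37 made up 70.8% ± 2.2 of the pair in YAP5SA and 56.0% ± 4.5 in Ctrl, without overlap. Of the erythroid markers, Hba-a2 and Hbb-bt had 0 counts in every library, and the 7 markers summed to at most 0.182 CPM in YAP5SA and 0.447 CPM in Ctrl.

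The glutathione carriers also parted. Slc25a39 was measured at 64.7, 56.4, 65.9 and 66.5 CPM in YAP5SA and 86.4, 81.7, 80.3 and 82.8 CPM in Ctrl, and was lower at -0.39 ± 0.07 with an adjusted p of 0.000434 in edgeR. Slc25a40 was measured at 31.9, 36.7, 30.3 and 27.3 CPM in YAP5SA and 20.1, 26.8, 23.0 and 23.5 CPM in Ctrl, and was higher at 0.43 ± 0.11 with an adjusted p of 0.00413 in edgeR. Neither carrier's groups overlapped, although the lowest YAP5SA library of Slc25a40 was close to the highest Ctrl library. Slc25a39 made up 85.9% ± 2.5 of the pair per kilobase in YAP5SA and 91.5% ± 1.1 in Ctrl. Of 14 tested genes of haem and iron-sulfur synthesis, 3 were higher and 5 lower, with a median log2 fold change of -0.19. That is 57.1% called, against 64.5% of all genes. Alas1, which starts haem synthesis from the glycine that Slc25a38 imports, was lower at -1.64, and the inner membrane transporter Abcb10 was lower at -1.30.

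**Figure D4:**
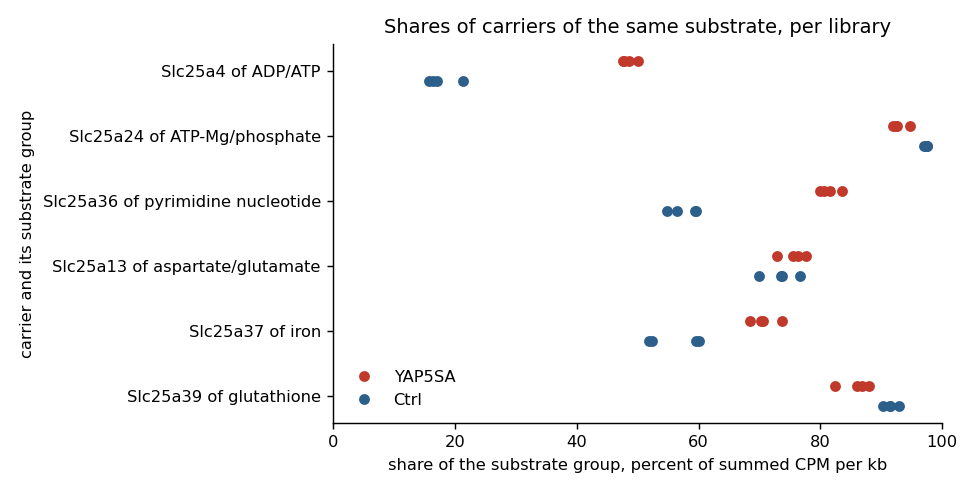
Share of 1 carrier in the summed CPM per kb of exon of the carriers of the same substrate, in percent, with 1 point per library, YAP5SA above Ctrl in each row. Slc25a4, Slc25a36 and Slc25a37 take larger shares and Slc25a24 and Slc25a39 smaller shares in every YAP5SA library than in any Ctrl library, whereas the libraries overlap for Slc25a13.

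Of the 3 carriers related to the uncoupling proteins, 2 were called higher and 1 was not called. Slc25a30, described as the kidney mitochondrial carrier, was measured at 125, 114, 107 and 109 CPM in YAP5SA and 43.4, 43.0, 44.0 and 46.8 CPM in Ctrl. All YAP5SA libraries lay far above the narrow range of the Ctrl libraries, with a log2 fold change of 1.36 ± 0.08 and an adjusted p of 2.18e-09 in edgeR. Slc25a27, known as UCP4 and mainly from neurons, was measured at 0.999, 0.989, 0.426 and 0.912 CPM in YAP5SA and 0.451, 0.592, 0.292 and 0.223 CPM in Ctrl, with YAP5SA replicate 3 inside the Ctrl range. The log2 fold change was 1.11 ± 0.42 with an adjusted p of 0.0326 in edgeR, on 69 counts over the YAP5SA libraries and 29 over the Ctrl libraries. That call was lost without YAP5SA replicate 1, 2 or 4 or Ctrl replicate 3 or 4, at log2 fold changes between 0.91 and 1.06, and in DESeq2, with an adjusted p of 0.0573. Slc25a14, known as UCP5, was not called, at -0.07 ± 0.15. Neural and glial markers, 7 of them, summed to 0.775 to 1.51 CPM in YAP5SA and 1.12 to 2.43 CPM in Ctrl, with Sox10 and Elavl4 at 0 counts; their part in the value of Slc25a27 was not tested.

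Family members that carry other symbols were listed separately. Ucp2, an uncoupling protein relative found in many epithelia, was lower at 219 ± 25.5 CPM in YAP5SA and 617 ± 32.7 CPM in Ctrl, with a log2 fold change of -1.49 and an adjusted p of 4.28e-09 in edgeR. Mtch1, an outer membrane relative, was lower at -0.32, a call lost with scaling by library totals, at -0.15. Mtch2 was not called with all libraries, at -0.19 and an adjusted p of 0.0727 in edgeR, and among the fits that left out 1 library it was called without YAP5SA replicate 4, at -0.28, or Ctrl replicate 2, at -0.25. Ucp1 had 0 counts and Ucp3 had 7 counts over the YAP5SA libraries and 4 over the Ctrl libraries.

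The largest change of the family was that of Slc25a48, a carrier linked in human cells to the import of choline into mitochondria. It was measured at 175, 163, 140 and 184 CPM in YAP5SA and 24.9, 19.4, 19.1 and 21.7 CPM in Ctrl. Even the lowest YAP5SA library stood several times above the highest Ctrl library. The log2 fold change was 2.96 ± 0.11 with an adjusted p of 4.11e-11 in edgeR, and the mean CPM differed by 7.79-fold. Under the 16 other settings its log2 fold change ranged between 2.89 and 3.13.

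Slc25a53, Slc25a45, Slc25a35 and Slc25a47 have no role given here. Slc25a53, which is X-linked, was measured at 4.63, 5.51, 4.96 and 4.65 CPM in YAP5SA and 2.03, 2.19, 2.63 and 1.90 CPM in Ctrl. It was higher in all YAP5SA libraries, with a log2 fold change of 1.16 ± 0.19 and an adjusted p of 0.000115 in edgeR. Slc25a45 was measured at 2.95, 2.24, 3.14 and 2.01 CPM in YAP5SA and 7.33, 6.63, 7.05 and 5.59 CPM in Ctrl. It was lower without overlap, with a log2 fold change of -1.36 ± 0.20 and an adjusted p of 3.20e-05 in edgeR.

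Slc25a35 was measured at 4.18, 2.91, 4.80 and 3.24 CPM in YAP5SA and 9.93, 6.69, 10.0 and 6.26 CPM in Ctrl. The groups did not overlap, although the spread within each was wide for this level. The log2 fold change was -1.13 ± 0.22 with an adjusted p of 0.000405 in edgeR. Rangrf, on the opposite strand, covers 31.3% of the exons of Slc25a35 and had 12 counts over the YAP5SA libraries and 0 over the Ctrl libraries, so that without a stated strand setting the reads of these 2 genes cannot be told apart with certainty. Slc25a46, an outer membrane protein that shapes mitochondria, was lower at 86.9 ± 9.4 CPM in YAP5SA and 116 ± 4.3 CPM in Ctrl, a log2 fold change of -0.42. Slc25a47, known from liver, was at 1.78 ± 0.18 CPM in YAP5SA and 1.87 ± 0.32 CPM in Ctrl and was not called.

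Besides Slc25a2, Slc25a18, Slc25a21, Slc25a31 and Slc25a41, the carriers with too few counts to be tested were Slc25a34, Slc25a43 and Slc25a54. The X-linked Slc25a43 had 23, 16, 14 and 3 counts in YAP5SA replicates 1 to 4 and 0, 0, 1 and 0 counts in Ctrl replicates 1 to 4. All YAP5SA libraries were above all Ctrl libraries, although the 3 counts of YAP5SA replicate 4 are no more than a count of 0 allows. The ratio of counts per total was 59.1, on 1 Ctrl count, with an exact 95% interval of 10.2 to 2374 that covers counting error only. Without a filter on low counts Slc25a43 was called higher with an adjusted p of 7.52e-07 in edgeR; no fitted fold is given, since it would depend on the prior count. Slc25a34 had 5 counts over the YAP5SA libraries and 12 over the Ctrl libraries, and Slc25a54 had none. A count of 0 in a library allows up to 3 counts, or 0.116 to 0.173 CPM at these depths. Among the 3 tested X-linked carriers, Slc25a53 was higher, Slc25a5 was lower and Slc25a14 was not called. Among the 36 tested autosomal carriers 27 were called, 10 higher and 17 lower. That is 75.0% of them, against 64.5% of all genes tested.

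The order of the carriers by level changed with these differences. Per kilobase of exon, Slc25a5 was the highest carrier in both groups, at 122 ± 8.2 CPM per kb in YAP5SA and 289 ± 4.9 CPM per kb in Ctrl, or 18.4% ± 0.5 of the summed family in YAP5SA and 35.1% ± 0.6 in Ctrl. In YAP5SA it was followed by Slc25a4 at 115 ± 5.9, Slc25a24 at 58.0 ± 7.8, Slc25a48 at 49.0 ± 5.7, Slc25a1 at 47.5 ± 2.4 and Slc25a3 at 45.3 ± 4.1 CPM per kb. The ranges of mean ± SD met for Slc25a5 and Slc25a4 there, and for neighbours among the other 4. In Ctrl it was followed by Slc25a1 at 94.4 ± 6.9, Slc25a24 at 67.0 ± 1.2, Slc25a4 at 61.8 ± 10.7 and Slc25a3 at 60.0 ± 4.8 CPM per kb. The ranges of mean ± SD met for Slc25a24 and Slc25a4 and for Slc25a4 and Slc25a3, but not for Slc25a24 and Slc25a3. Slc25a48 ranked 4 in YAP5SA and 19 in Ctrl per kilobase of exon, but 11 in YAP5SA and 26 in Ctrl by transcript length. By transcript length Slc25a3 ranked 1 in YAP5SA and 2 in Ctrl, and Slc25a5 ranked 2 in YAP5SA and 1 in Ctrl, so the top of the order depends on the length used.

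All 47 rows together held 0.229% ± 0.007 of all counts in YAP5SA and 0.226% ± 0.008 in Ctrl, with overlap. After TMM scaling the sum was 2157 ± 80.1 CPM in YAP5SA and 2408 ± 30.2 CPM in Ctrl, without overlap, and per kilobase of exon it was 663 ± 27.9 CPM per kb in YAP5SA and 822 ± 12 CPM per kb in Ctrl. Whether the summed CPM differs thus depends on the scaling. The sum per kilobase of exon stays lower in YAP5SA, without overlap, when the TMM factors are taken out.

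Genes that bring the carriers into the inner membrane were set beside the carriers. The import list holds receptors and pores of the outer membrane, the small TIM chaperones of the space between the membranes and the TIM22 insertase, 16 genes in all, of which 6 were higher, 2 lower and 8 not called, with a median log2 fold change of 0.12. With all libraries and TMM scaling, the share of this list that was called was below the 64.5% of all genes. Scaled by library totals, 8 were higher and 0 lower, and without YAP5SA replicate 4, 5 were higher and 3 lower. Tomm20, a receptor, was higher at 192 ± 29.0 CPM in YAP5SA and 119 ± 9.8 CPM in Ctrl, a log2 fold change of 0.70, Tomm7 was higher at 0.55, and Tomm70a, the receptor known for carrier precursors, at 0.37. Of 13 tested genes for other mitochondrial channels and carriers, 2 were higher and 5 lower, or 5 and 4 with scaling by library totals. With TMM scaling 53.8% were called, against 64.5% of all genes. Letm1, of ion exchange, was lower at -1.42, Mcu, the pore of the calcium uniporter, at -1.21, and Sfxn3, a sideroflexin, was higher at 0.89.

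Of 10 regulators of mitochondrial biogenesis, 1 was higher, 4 were lower and 5 were not called, with a median log2 fold change of -0.06. With scaling by library totals 3 were higher and 2 lower, with upper quartile scaling 2 and 2, and without Ctrl replicate 4, 2 were higher and 4 lower. The 2 coactivators of the PGC-1 family with the smallest p moved in opposite directions: Ppargc1b was lower at 0.767 ± 0.275 CPM in YAP5SA and 2.53 ± 0.24 CPM in Ctrl, a log2 fold change of -1.71, and Ppargc1a was higher at 3.22 ± 0.60 CPM in YAP5SA and 1.46 ± 0.49 CPM in Ctrl, a log2 fold change of 1.16. Esrra, a nuclear receptor that works with them, was lower at -0.62.

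**Figure D5:**
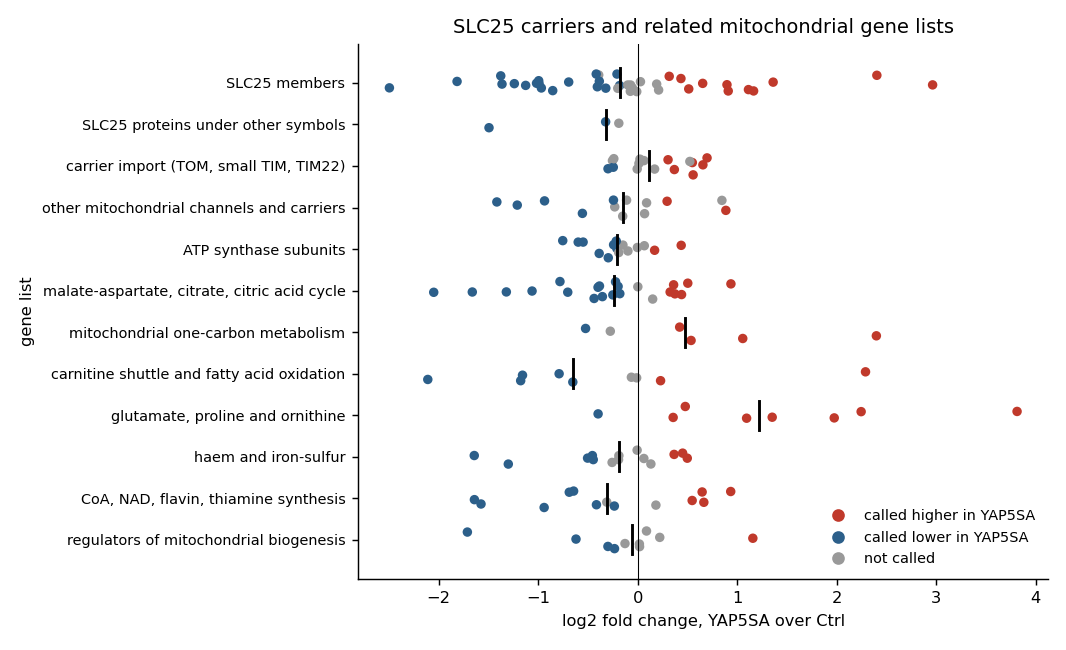
Log2 fold change, YAP5SA over Ctrl, of every tested gene in the SLC25 family and in 11 related lists; points are genes, black bars are medians, and red, blue and grey mark genes called higher, called lower and not called. The median is -0.18 for the carriers, 1.22 for glutamate, proline and ornithine metabolism and -0.65 for the carnitine shuttle and fatty acid oxidation.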

How the data were processed

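Total RNA was taken from 8 organoid cultures with a Qiagen RNeasy Plus Universal kit, and VAHTS Universal V8 libraries were read from both ends on an Illumina instrument, per the labels' protocols. The deposited values are raw counts per gene and library, as the authors' counting gave them, with no normalization. The submitters' processing notes name cutadapt, HISAT2 2.0.1, HTSeq 0.6.1 and build mm9. Annotation, strand setting and the treatment of reads with several matches are not stated in the sources used here.

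Quasi-likelihood F tests (two-sided, no covariate) were run with edgeR 4.0.16 in R 4.3.3 after TMM scaling. The filter filterByExpr, set to at least 10 counts and a total of 15, left 13812 of 26206 genes with a count. P-values were adjusted over all genes tested by the Benjamini-Hochberg method with a threshold of 0.05. An SE was computed as the size of the log2 fold change over the root of F. The common BCV was 0.127. At 17387372 to 25841256 counts per library, a floor of 3 counts corresponds to 0.116 to 0.173 CPM; floors and intervals cover counting error only. The procedure was first tested on simulated data with known changes in a small part of the genes. Far more genes were called in these data, so that test does not cover the scaling or the error rate here.

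The carriers and the gene lists were chosen with earlier results of these data known. Values in every library are given for carriers called with at least a 2-fold difference, the 4 highest carriers per kilobase and carriers that share a substrate; from each related list up to 3 genes with the smallest p are named. Some genes that these rules name are not reported here; counts and medians include them. Chromosomes, exon lengths and overlaps come from GENCODE M21 (GRCm38) by symbol and promoters from RefSeq (GRCm38.p6), so no coordinates of the deposited table are given. Alternatives were scaling by RLE, by upper quartile or by library size, testing without a filter or with 1 CPM required in 4 libraries, a block for the replicate number, DESeq2 1.42.0, limma-voom with limma 3.58.1 and leaving out each library in turn. Transcript length in place of exon length was added after seeing the data.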

Additional observations from a re-analysis of the deposited data

Results flagged for a closer look

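Among 94 groups of 4 values examined, carrier levels and shares among them, 3 held a value far from the other 3 by Dixon's criterion, which sets the gap to the nearest value against the range; chance alone flags about 1 in 20 groups. Slc25a24 in YAP5SA replicate 4 stood at 238 CPM, against 179 to 189 CPM in the other YAP5SA libraries. Slc25a27 in YAP5SA replicate 3 stood at 0.426 CPM, against 0.912 to 0.999 CPM in the other YAP5SA libraries, and this value rests on 8 counts. The share of Slc25a18 in the glutamate carriers per kilobase was 5.26% in YAP5SA replicate 3 and 0% in the other YAP5SA libraries, on 2 counts.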

How the results depend on the processing

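Over the 16 alternatives 26 to 31 carriers were called, 10 to 12 higher and 15 to 19 lower, and 11 to 16 were called with at least a 2-fold difference; of all genes 8299 to 9716 were called. Of the 29 called carriers, 25 were called under every alternative and 0 changed sign. The exceptions were Slc25a11, Slc25a16, Slc25a24 and Slc25a27, with adjusted p-values of 0.0127 to 0.944 for Slc25a11, 0.00195 to 0.190 for Slc25a16, 0.00104 to 0.735 for Slc25a24 and 0.0152 to 0.101 for Slc25a27, and the cause was not tested. Leaving out 1 library gave 26 to 31 called carriers, 11 to 16 with at least a 2-fold difference and a median log2 fold change of -0.20 to -0.09. With library size scaling the median of the tested carriers was -0.0072, and the median of all genes moved to 0.19, which is the shift this scaling makes for all genes. Slc25a43 entered the test without a filter on low counts and in 5 fits that left out 1 library, there only through its counts in YAP5SA, so that its calls in those fits add no support. Whether the replicate numbers of the titles pair the libraries was not settled. Same-numbered libraries deviated together with correlations of 0.05 to 0.28, and differently numbered libraries were not compared. With the replicate number as a block, 29 carriers were called, 28 of them the same, with Slc25a11 lost and Slc25a22 gained, and Mtch2, a relative under another symbol, was also called, at -0.20. Depth limits the carriers under about 1 CPM, where single libraries held 0 to 29 counts.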
